A study of Mus musculus with 16 samples.

Results

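Replication and mitosis genes were followed as a group of 41 named genes, whose products license and copy DNA, drive the S to M phase cyclin programme, and separate the chromosomes. They were chosen by name and not by a cut on measured values, but with earlier results of these data known. All probe sets with one of these names as their single gene symbol were taken, which gave 77 probe sets for 39 genes, of 22626 probe sets and 12393 singly named genes on the array. Ccnb1 and Cdca8 had no such probe set, and 2 further probe sets that name a member among several genes were left out. Of the 39 genes, 16 had 1 probe set, 12 had 2, 8 had 3, 2 had 4 and 1, Mcm3, had 5.

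Liver RNA of male FvB/n mice was measured on 16 Affymetrix arrays, 8 in each of 2 experiments. The diet experiment held 2 arrays each of Alb::GC livers on a high fat diet (HFD), wildtype livers on HFD, Alb::GC livers on a low fat diet (LFD) and wildtype livers on LFD. The other held 4 arrays of TTR::Fv2E-PERK livers treated with AP20187 and 4 of TTR::Fv2E-PERK livers left untreated, so that controls and treated mice carried the same transgene, in a high expressing line. Alb::GC places an active fragment of GADD34, the phosphatase subunit that removes phosphate from eIF2α, under the hepatocyte albumin promoter. TTR::Fv2E-PERK places the kinase domain of PERK, which phosphorylates eIF2α, fused to drug-binding domains, under the transthyretin promoter, and AP20187 joins the fusion proteins. The sources used here do not give ages, doses, or how long the diets and the treatment lasted. For LFD wildtype replicate 2 a label field carries both genotype names, and for AP20187 replicate 4 the same field carries only 1 letter, so the group was taken from the description of each. Nothing in the labels ties arrays to separate animals, and the p-values therefore measure only the spread between arrays, part or all of which may be technical.

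Adult hepatocytes rarely divide, and most of them rest outside the cell cycle. When cells enter S phase, E2F factors switch on the genes that load the Mcm helicase and supply nucleotides. Later the MuvB complex, with B-Myb and Foxm1, switches on the genes of mitosis, and it binds promoters that hold a short element known as CHR beside CCAAT boxes.

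Promoters of mitotic and of other members held different motifs, and examples are printed here because they include Mcm7, called on all its probe sets with AP20187, and mitosis genes with wide differences between the diet groups. Windows of 250 bases before and 50 bases after the annotated start were taken from RefSeq, build GRCm38.p6, in which 32 of the 41 members had 33 windows. Motifs were searched on both strands: CCAAT, the CHR forms TTTGAA and TTCGAA, and the E2F form TTTNNCGC, where N is any base and matches of different motifs may overlap. Capitals mark every match in either orientation. The windows shown are Ube2c at chr2:164769679-164769978 on the plus strand, Ccnb2 at chr9:70421505-70421804, Cdk1 at chr10:69352863-69353162, Cdc20 at chr4:118437294-118437593 and Mcm7 at chr5:138171834-138172133, the last 4 on the minus strand. Mcm7 has a second annotated start, whose window held 1 CCAAT match and none of the other motifs.
Ube2c: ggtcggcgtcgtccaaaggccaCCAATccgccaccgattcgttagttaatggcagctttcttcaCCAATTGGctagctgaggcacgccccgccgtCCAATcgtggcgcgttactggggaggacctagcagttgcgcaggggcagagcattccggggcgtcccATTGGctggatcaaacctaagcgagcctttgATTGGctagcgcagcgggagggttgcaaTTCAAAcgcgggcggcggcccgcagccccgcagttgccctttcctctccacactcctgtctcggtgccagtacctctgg
Ccnb2: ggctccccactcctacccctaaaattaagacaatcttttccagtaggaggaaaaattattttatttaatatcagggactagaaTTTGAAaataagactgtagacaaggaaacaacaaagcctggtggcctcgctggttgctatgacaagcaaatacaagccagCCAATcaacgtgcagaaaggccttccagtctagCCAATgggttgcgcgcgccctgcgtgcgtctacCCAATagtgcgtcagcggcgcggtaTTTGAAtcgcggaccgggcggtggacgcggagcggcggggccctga
Cdk1: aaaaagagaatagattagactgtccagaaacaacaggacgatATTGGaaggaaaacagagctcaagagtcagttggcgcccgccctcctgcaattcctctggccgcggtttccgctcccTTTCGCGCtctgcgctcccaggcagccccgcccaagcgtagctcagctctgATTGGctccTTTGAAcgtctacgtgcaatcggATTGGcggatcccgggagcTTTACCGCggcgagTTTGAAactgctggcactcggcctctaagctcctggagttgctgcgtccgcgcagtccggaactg
Cdc20: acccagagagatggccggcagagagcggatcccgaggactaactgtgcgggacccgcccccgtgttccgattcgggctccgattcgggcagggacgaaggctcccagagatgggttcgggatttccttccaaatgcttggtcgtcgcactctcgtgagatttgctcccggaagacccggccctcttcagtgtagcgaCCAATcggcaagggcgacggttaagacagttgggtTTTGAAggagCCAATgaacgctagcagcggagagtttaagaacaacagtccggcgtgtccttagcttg
Mcm7: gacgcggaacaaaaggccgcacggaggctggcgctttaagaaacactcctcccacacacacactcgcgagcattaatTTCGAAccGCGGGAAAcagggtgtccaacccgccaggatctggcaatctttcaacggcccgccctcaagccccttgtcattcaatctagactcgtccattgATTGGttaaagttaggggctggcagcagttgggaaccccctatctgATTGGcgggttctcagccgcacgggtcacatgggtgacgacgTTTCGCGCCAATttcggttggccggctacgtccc
The Ube2c window held 6 CCAAT matches and 1 TTTGAA match, that of Ccnb2 held 3 and 2, and that of Cdc20 held 2 and 1. The Cdk1 window held 3 CCAAT, 2 TTTGAA and 2 TTTNNCGC matches. The Mcm7 window printed held 3 CCAAT, 1 TTCGAA and 2 TTTNNCGC matches. Over the 18 mitotic members in the table, 15 windows (83.3%) held TTTGAA or TTCGAA, against 3 of 15 windows (20%) of the replication and G1 members and 19.2% of all 32851 windows. TTTNNCGC was held by 1 of the 18 mitotic windows (5.56%), 8 of the 15 replication and G1 windows (53.3%) and 5.17% of all. CCAAT was held by 88.9%, 66.7% and 37.4% of them. Among further genes of the same pathways, TTTGAA or TTCGAA was held by 26 of 38 windows of other mitosis genes (68.4%) and 8 of 45 windows of other replication genes (17.8%). TTTNNCGC separated those lists far less, at 9 of 38 (23.7%) and 13 of 45 (28.9%). These matches describe the letters of a window and show no binding.

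Each value was a deposited ratio around 1 for a probe set on an array, with no absolute level, so probe sets were never ranked by brightness and the 2 experiments, scaled apart, were never compared in level. Array medians lay between 0.94 and 1.02. Changes are log2 differences of the ratio plus 0.05, with standard errors, from limma fits over all probe sets, and a call means a Benjamini-Hochberg adjusted p under 0.05. The members were noisier than most probe sets. Their median residual SD was 0.51 in the diet experiment and 0.50 in the TTR::Fv2E-PERK experiment on the log2 scale, against 0.27 for all probe sets in each, and 59 and 58 of the 77 lay above the array's median. In such whole-liver RNA, fewer cells of a type and less RNA per cell cannot be told apart.

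**Figure D1:**
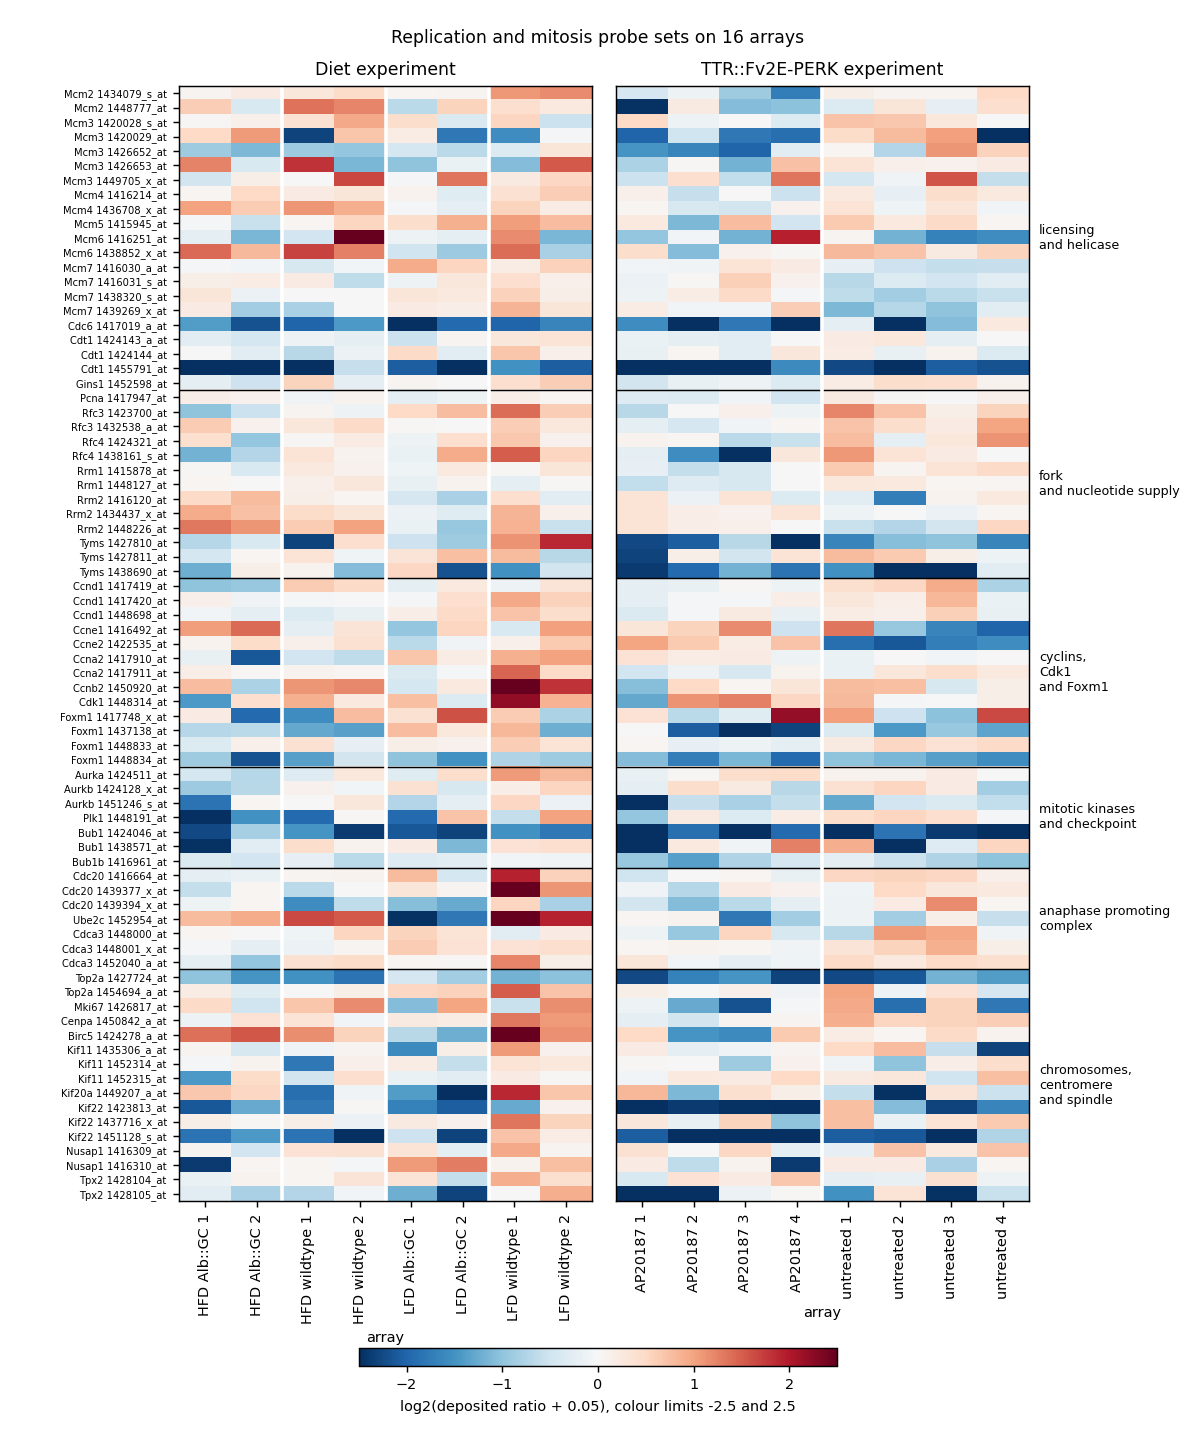
Colour gives log2 of the deposited ratio plus 0.05 for 77 probe sets (rows, ordered by role, black lines between roles) on 16 arrays (columns), with the colour scale ending at -2.5 and 2.5. In the diet panel the red of Ube2c, Ccnb2, Cdc20 and Birc5 is deepest on LFD wildtype replicate 1, where Ccnb2 had a ratio of 9.07, and in the TTR::Fv2E-PERK panel the Ccne2 row changes from red under AP20187 to blue without it.

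The first comparison asked how these genes stood after the PERK fusion was activated. With AP20187, 12 of the 77 probe sets fell (15.6%) and 5 rose (6.49%), while over all probe sets 20.4% fell and 13.7% rose. By gene, 9 of 39 fell (23.1%) and 2 rose (5.13%), against 24.3% and 16.3% of all genes. The share of members called was thus below the background in each direction. The median member change was -0.37, against -0.13 for all probe sets, and 55 of 77 (71.4%) had a negative value, against 58.6% of all.

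Ccne2, the cyclin E that starts S phase with Cdk2, had the largest called change. Its ratios were 1.94, 1.52, 1.08 and 1.60 on the AP20187 arrays, against 0.22, 0.18, 0.25 and 0.29 on the untreated arrays. The groups lay far apart with no overlap. Ccne2 rose by 2.46 ± 0.24 (limma adjusted p = 0.000242), about 5.51-fold on the scale used, and stayed between 1.98 and 2.65 under all 16 alternative settings. Its paralog Ccne1 spread from 0.65 to 2.21 with AP20187 and from 0.20 to 2.47 without it, and its change of 1.19 ± 0.72 did not pass (limma adjusted p = 0.252).

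Mcm7, a subunit of the replicative helicase, was the other gene that rose, on all 4 of its probe sets. On 1438320_s_at its ratios were 0.87, 1.08, 1.35 and 0.92 with AP20187, against 0.59, 0.50, 0.58 and 0.63 untreated. Every treated array lay above every untreated one, here and on the other 3. The 4 changes ran from 0.57 to 0.95, with limma adjusted p between 0.0083 and 0.0397. Mcm7 1438320_s_at and 1439269_x_at kept their call whichever array was left out. Mcm7 1416030_a_at lost it without untreated replicate 2, 3 or 4 or AP20187 replicate 3 or 4, and 1416031_s_at lost it without any single untreated array or without AP20187 replicate 2, 3 or 4.

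No other subunit of the helicase was called higher. Mcm3 fell on 1426652_at by 1.60 ± 0.49 (limma adjusted p = 0.0366), with ratios of 0.31, 0.27, 0.20 and 0.77 under AP20187 and 0.99, 0.55, 2.09 and 1.44 untreated. These groups overlapped, and the call was lost without untreated replicate 1, 3 or 4 or AP20187 replicate 1, 2 or 3. The other 4 Mcm3 probe sets were not called. Mcm2 on 1434079_s_at had ratios of 0.70, 0.86, 0.49 and 0.25 with AP20187, against 1.05, 1.0, 1.0 and 1.37 untreated. The groups did not overlap, and the difference of -0.99 ± 0.34 fell just short of a call (limma adjusted p = 0.0534). Mcm4, Mcm5, Mcm6, Cdc6 and Cdt1, the last 2 being loaders of the helicase, had no called probe set. Gins1, a subunit of the GINS complex that activates the helicase, fell by 0.56 ± 0.12 (limma adjusted p = 0.00958), with ratios of 0.68 to 0.86 under AP20187 and 1.02 to 1.30 without it, and kept its call under all 16 alternatives.

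Among the fork and nucleotide genes 5 of 13 probe sets fell (38.5%, against 20.4% of all probe sets) and none rose (against 13.7%). Rfc3, a subunit of the clamp loader, fell on both probe sets, by 0.76 ± 0.18 on 1432538_a_at (limma adjusted p = 0.0124) and by 0.83 ± 0.26 on 1423700_at (0.0374). On 1432538_a_at its ratios were 0.80, 0.70, 0.89 and 0.99 with AP20187, against 1.59, 1.31, 1.11 and 1.92 untreated. No array of one group reached the other. The call of Rfc3 1423700_at was lost under 8 of 16 alternatives, among them leaving out untreated replicate 1, 2 or 4 or AP20187 replicate 1, 2 or 4. The other losses came with all arrays kept. Rrm1, the large subunit of ribonucleotide reductase, fell by 0.68 ± 0.17 and 0.49 ± 0.15 on its 2 probe sets (limma adjusted p = 0.0172 and 0.0387). Its partner Rrm2, the subunit made in S phase, had positive values of 0.29 to 0.47 on all 3 probe sets, and none was called. On Rrm2 1434437_x_at the ratios were 1.21, 1.07, 1.03 and 1.21 with AP20187, against 0.86, 0.96, 0.85 and 0.99 untreated, with no overlap and an adjusted p of 0.0514 (limma). Pcna, the sliding clamp, fell by 0.40 ± 0.13 (limma adjusted p = 0.041). The calls of Pcna and of Rrm1 1448127_at were lost under both rescalings of the arrays, and without any single array except AP20187 replicate 3 for Pcna and AP20187 replicate 4 for Rrm1. Tyms, which makes thymidylate, and Rfc4 had no called probe set.

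In the mitotic classes the calls were few. Cenpa, the histone that marks centromeres, had ratios of 0.80, 0.68, 1.0 and 1.0 with AP20187, against 1.82, 1.41, 1.42 and 1.48 untreated. It fell by 0.79 ± 0.15 with no overlap (limma adjusted p = 0.00405) and kept its call under all 16 alternatives. Foxm1, the transcription factor of the G2 and M phases, fell on 1448833_at by 0.52 ± 0.10 (limma adjusted p = 0.00528), while its other 3 probe sets were not called and 1 of them had a positive value. Cdc20, the activator of the anaphase-promoting complex, fell on 2 of 3 probe sets, by 0.59 ± 0.15 on 1416664_at and by 0.95 ± 0.31 on 1439394_x_at (limma adjusted p = 0.0189 and 0.0477). Its call on 1416664_at was lost without untreated replicate 1 or 3. That on 1439394_x_at was lost under 10 of 16 alternatives, among them leaving out any single array except untreated replicate 1. The other losses came with all arrays kept. Cdca3, a trigger of mitotic entry, fell on 1 of 3 probe sets by 0.42 ± 0.13 (limma adjusted p = 0.0328), a call lost under both rescalings and without untreated replicate 1, 3 or 4 or AP20187 replicate 2, 3 or 4. None of the 7 probe sets of the mitotic kinases and the spindle checkpoint (Aurka, Aurkb, Plk1, Bub1 and Bub1b) was called. Nor were Cdk1, Ccnb2, Ube2c, Birc5, Top2a or Mki67. Mki67, the usual marker of cycling cells, ran from 0.17 to 0.92 with AP20187 and from 0.22 to 1.89 without it, a difference of -0.37 ± 0.80 with a 95% interval of -2.22 to 1.49.

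**Figure D2:**
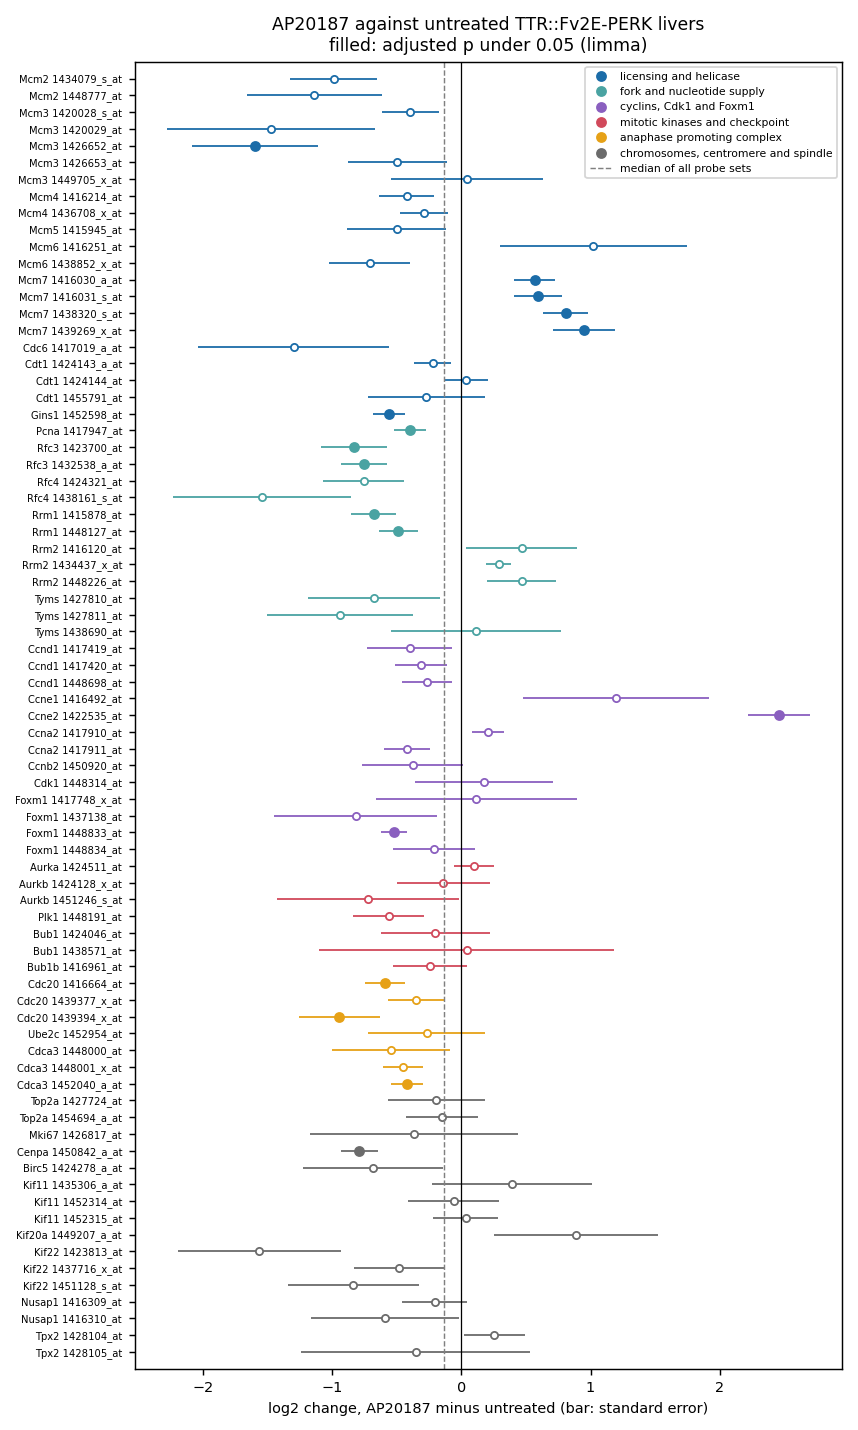
Points give the log2 change of each of 77 probe sets, AP20187 minus untreated (horizontal axis, n = 4 arrays each), with bars of 1 standard error and filled points for adjusted p under 0.05 (limma), coloured by role. Ccne2 at 2.46 and the 4 Mcm7 points lie to the right, most other filled points lie left of 0, and the dashed line marks the median of all probe sets at -0.13.

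The number of falls depended on the scaling and on single arrays. It was 7 with array medians set equal and 8 after quantile normalization, and 7 without untreated replicate 1 or untreated replicate 3. The number of rises was 3 without untreated replicate 2, untreated replicate 3 or AP20187 replicate 4. All 4 AP20187 arrays had a lower median member ratio (0.81, 0.83, 0.86 and 0.89) than the 4 untreated arrays (1.09, 0.96, 1.05 and 0.95). The medians of all probe sets lay apart in the same direction, though less widely. They were 0.96, 0.94, 0.98 and 0.95 with AP20187 and 0.99, 0.99, 1.0 and 1.01 untreated. Marker lists of other cell types moved in the same comparison. Against 24.3% of all genes that fell and 16.3% that rose, 7 of 9 hepatocyte markers fell and 1 rose, 7 of 11 macrophage markers fell and 0 rose, and 7 of 10 stellate cell and fibroblast markers fell and 0 rose. Of the other lists, 3 of 9 endothelial and 1 of 10 lymphocyte markers fell and 0 rose, 2 of 5 erythroid and 1 of 5 cholangiocyte markers rose and 0 fell, and 0 of 8 neutrophil markers were called in either direction. Per-array median ratios were 0.90 to 1.02 with AP20187 and 1.26 to 1.41 untreated for the hepatocyte list. For macrophages they were 0.82 to 1.03 with AP20187 and 1.19 to 1.25 untreated, and for stellate cells and fibroblasts 0.875 to 0.97 with AP20187 and 1.30 to 1.66 untreated. Their part in the result was not tested, and ratios do not show which markers are absent.

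Further genes of the same pathways were counted from fixed lists. Of 36 other replication genes, 16 fell (44.4%, against 24.3% of all genes) and 2 rose (5.56%, against 16.3%) with AP20187. Of 38 other mitosis genes 7 fell (18.4%) and 2 rose (5.26%), both below those background shares. Fen1, the flap nuclease of lagging strand synthesis, fell by 2.13 ± 0.43 on 1421731_a_at (limma adjusted p = 0.00608), while its other probe set lay at -0.08 ± 0.13. Cks1b, a small partner of cyclin-dependent kinases, fell on both probe sets, by 1.66 ± 0.14 and 0.76 ± 0.08 (limma adjusted p = 0.000144 and 0.000331). Ect2, which directs cell division, rose by 1.70 ± 0.37 (limma adjusted p = 0.00883). Of 7 genes for inhibitors of cyclin-dependent kinases, 2 rose and 2 fell (28.6% each, against 16.3% and 24.3% of all genes). Cdkn1a, which encodes p21, had ratios of 1.25, 1.18, 1.14 and 1.18 on 1421679_a_at with AP20187, against 0.06, 0.01, 0.04 and 0.05 untreated. It rose by 3.82 ± 0.30 there and by 2.93 ± 0.24 on 1424638_at (limma adjusted p = 0.000106 and 0.000131), and Cdkn1b, which encodes p27, rose on 1434045_at by 1.43 ± 0.27 (0.00478). The other Cdkn1b probe set did not share the rise, at -0.33 ± 0.57 (limma adjusted p = 0.709). Cdkn2c, 1 of the 2 inhibitor genes that fell, did so by 0.88 ± 0.09 on 1416868_at (limma adjusted p = 0.00031).

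In the diet experiment one array stood apart for these genes. LFD wildtype replicate 1 had a median member ratio of 1.42, while LFD wildtype replicate 2 had 1.19 and the other 6 arrays had 0.81 to 1.01. It was the highest of the 8 arrays for 34 of the 77 probe sets (44.2%), against 19.9% of all probe sets, and reached a ratio of at least 2 on 21 of them (27.3%), against 2.15% of all. Counts between diets in wildtype, the medians and widest differences between genotypes on LFD, and the largest member interactions are therefore given without each LFD wildtype array as well.

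HFD was compared with LFD within each genotype. In wildtype, 4 of 77 probe sets fell with HFD (5.19%, against 6.63% of all) and none rose (limma, against 7.97% of all), with 18 at an unadjusted p under 0.05 (23.4%, against 33.7% of all). The median member change was -0.36, against -0.11 for all, and 59 of 77 (76.6%) had negative values, against 55.9% of all. In 36 of them (46.8%) both HFD arrays lay below both LFD arrays, against 36% of all.

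The 4 falls in wildtype came from different steps of the cycle. Mcm2 on 1434079_s_at had ratios of 1.16 and 1.32 on HFD, against 2.08 and 2.22 on LFD, and fell by 0.77 ± 0.13 (limma adjusted p = 0.0183). Its other probe set had a value of the opposite sign, 0.97 ± 0.46, and was not called. Cenpa had 1.22 and 0.91 on HFD, against 2.45 and 2.03 on LFD, and fell by 1.05 ± 0.22 (limma adjusted p = 0.032). Ccnd1, the cyclin D1 that links growth signals to G1, had 0.74 and 0.83 on HFD on 1448698_at, against 1.60 and 1.31 on LFD, and fell by 0.85 ± 0.18 (limma adjusted p = 0.0338). Its other probe sets were not called and differed. Ccnd1 1417419_at lay higher on HFD, at 1.50 and 1.34, against 0.87 and 1.20 on LFD. Ccnd1 1417420_at lay lower on HFD, at 0.92 and 0.96, against 1.88 and 1.44 on LFD. Cdc20 on 1439377_x_at had 0.58 and 0.95 on HFD, against 6.34 and 2.11 on LFD, and fell by 2.23 ± 0.53 (limma adjusted p = 0.0414). The 2 LFD values of Cdc20 lay far apart. Kif22 1451128_s_at had 0.23 and 0.10 on HFD, against 1.59 and 1.08 on LFD. That difference of -2.73 ± 0.71 just missed a call (limma adjusted p = 0.0517), and Kif22 1423813_at overlapped between the diets. The call of Mcm2 was lost without LFD wildtype replicate 2 or either HFD wildtype array, and that of Cenpa without either array of HFD wildtype, LFD wildtype or LFD Alb::GC. That of Ccnd1 was lost without either array of HFD wildtype, LFD wildtype or HFD Alb::GC, and that of Cdc20 without any single array except LFD wildtype replicate 2. The count of falls was 0 without HFD wildtype replicate 1 or 2, 1 without LFD wildtype replicate 1 and 7 without LFD wildtype replicate 2, and 1 when only the 4 arrays compared set the spread.

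In Alb::GC livers 2 probe sets rose with HFD (2.6%, against 4.64% of all) and 1 fell (1.3%, against 2.13%). Negative values were seen for 44 of 77 (57.1%, against 51.5% of all). Ube2c, the ubiquitin-conjugating enzyme of the anaphase-promoting complex, had ratios of 1.68 and 1.84 on HFD, against 0.13 and 0.24 on LFD. It rose by 2.98 ± 0.34 (limma adjusted p = 0.0121), 7.91-fold on the scale used. That call was lost without LFD Alb::GC replicate 1 or either HFD Alb::GC array, with limma adjusted p between 0.00935 and 0.0741 over the alternatives. Mcm4 on 1436708_x_at rose by 0.96 ± 0.20 and Rfc3 on 1423700_at fell by 1.40 ± 0.30 (limma adjusted p = 0.0459 each). Both of these calls were lost without any 1 of LFD Alb::GC replicates 1 and 2, HFD wildtype replicates 1 and 2 and HFD Alb::GC replicates 1 and 2. Mcm4 1416214_at overlapped between the diets, at 0.99 and 1.37 on HFD and 1.01 and 0.76 on LFD. Rfc3 1432538_a_at ran the other way without a call, at 1.50 and 1.03 on HFD and 0.97 and 0.96 on LFD. Birc5, which encodes the chromosomal passenger protein survivin, had 2.54 and 2.90 on HFD, against 0.57 and 0.38 on LFD, a difference of 2.42 ± 0.53 that did not pass (limma adjusted p = 0.0501). Kif20a, a kinesin of the central spindle, had 1.54 and 1.39 on HFD, against 0.33 and 0.12 on LFD, a difference of 2.57 ± 0.72 (0.0833). Rrm2 1416120_at had 1.34 and 1.68 on HFD, against 0.70 and 0.52 on LFD. Its difference of 1.25 ± 0.28 did not pass (limma adjusted p = 0.0528). The count of rises was 0 without LFD Alb::GC replicate 1 or either HFD Alb::GC array, 1 without LFD Alb::GC replicate 2 or either HFD wildtype array, and 7 without either LFD wildtype array. The count of falls was 0 without either LFD Alb::GC array, either HFD wildtype array or HFD Alb::GC replicate 2.

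Averaged over genotypes, 11 probe sets fell with HFD (14.3%, against 14% of all) and 3 rose (3.9%, against 13.5%). The share that fell was near the background. By gene, 11 of 39 fell (28.2%, against 19.3% of all genes) and 3 rose (7.69%, against 16%). Rfc3 1423700_at had ratios of 0.45 and 0.64 in HFD Alb::GC and 1.0 and 0.86 in HFD wildtype, against 1.37 and 1.65 in LFD Alb::GC and 2.60 and 1.49 in LFD wildtype. All 4 HFD values lay below all 4 LFD values, and it fell by 1.23 ± 0.21 (limma adjusted p = 0.0115) with its call kept under all 17 alternatives. Rfc3 1432538_a_at did not follow it and lay at 1.03 to 1.50 on HFD and 0.96 to 1.48 on LFD. Mcm4 1436708_x_at had 1.95 and 1.50 in HFD Alb::GC and 2.11 and 1.82 in HFD wildtype, against 0.92 and 0.79 in LFD Alb::GC and 1.42 and 1.08 in LFD wildtype. It rose by 0.80 ± 0.14 (limma adjusted p = 0.0129), again under all 17 alternatives. Mcm4 1416214_at did not share the rise and lay at 0.99 to 1.37 on HFD and 0.76 to 1.49 on LFD.

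The remaining falls with HFD were those of Ccnd1, Mcm7, Mcm5, Mcm2, Cdca3, Top2a, Ccna2, Aurka, Cdc20 and Cenpa. The averaged falls of Mcm2 and Cenpa rested on wildtype. In Alb::GC Mcm2 1434079_s_at had 1.0 and 1.11 on HFD, against 0.99 and 1.0 on LFD. Cenpa there had 0.87 and 1.24 on HFD, against 1.12 and 1.09 on LFD. Mcm2 1448777_at did not share the fall and lay at 0.72 to 2.52 on HFD and 0.58 to 1.43 on LFD. Ccna2, the cyclin A of S and G2 phase, fell by 1.55 ± 0.42 on 1417910_at (limma adjusted p = 0.0388). Its ratios there were 0.83 and 0.18 in HFD Alb::GC and 0.67 and 0.59 in HFD wildtype, against 1.56 and 1.08 in LFD Alb::GC and 1.81 and 1.96 in LFD wildtype. Top2a, which untangles DNA before division, fell by 0.83 ± 0.20 on 1454694_a_at (limma adjusted p = 0.0295), and Aurka, a kinase of the spindle poles, by 0.80 ± 0.22 (0.0411). Mcm7, which rose with AP20187, fell on 1 of 4 probe sets with HFD, by 0.70 ± 0.15 (limma adjusted p = 0.0208). Beside Mcm4, Rrm2 rose on 1448226_at by 1.22 ± 0.34 (limma adjusted p = 0.0435). Ube2c was called higher on the log2 scale, by 1.11 ± 0.24 (limma adjusted p = 0.0222), but its mean ratio ran the other way, at 2.37 ± 0.715 on HFD and 2.76 ± 3.25 on LFD (SD, n = 4 each). The groups overlapped, and the diet difference had opposite signs in the 2 genotypes.

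Apart from Rfc3 and Mcm4, each of these calls was lost without at least 1 array. That of Ccnd1 was lost without HFD wildtype replicate 1, and that of Ccna2 without any single LFD or HFD wildtype array. Top2a lost its call without either LFD Alb::GC array, either HFD wildtype array or HFD Alb::GC replicate 2, and Aurka without any single array except LFD Alb::GC replicate 1. Mcm7 lost it without LFD wildtype replicate 2, LFD Alb::GC replicate 1, HFD wildtype replicate 1 or either HFD Alb::GC array. Ube2c lost it without LFD Alb::GC replicate 1 or any single HFD array, and Rrm2 without any single array except LFD wildtype replicate 1. Single arrays also moved the counts. The number of falls was 5 without LFD wildtype replicate 1 or HFD Alb::GC replicate 2, and 6 without either LFD Alb::GC array, HFD wildtype replicate 2 or HFD Alb::GC replicate 1. It was 1 without HFD wildtype replicate 1. The number of rises was 7 without LFD wildtype replicate 1 and 1 without LFD Alb::GC replicate 1, either HFD wildtype array or either HFD Alb::GC array. Other measures moved with diet. The erythroid list had per-array median ratios of 2.24 to 2.38 in HFD wildtype, 0.785 to 1.06 in HFD Alb::GC, 0.94 in LFD Alb::GC and 0.96 to 0.975 in LFD wildtype. Of 5 erythroid genes 3 rose and 1 fell with HFD averaged over genotypes (against 16% and 19.3% of all genes). The endothelial list lay higher on HFD in both genotypes, at 1.13 to 1.15 in HFD Alb::GC and 1.13 to 1.155 in HFD wildtype, against 0.96 to 1.0 in LFD Alb::GC and 0.86 to 0.925 in LFD wildtype, and 3 of 9 endothelial genes rose. Of 11 macrophage genes 3 rose, of 10 stellate cell and fibroblast genes 3 fell, and of 9 hepatocyte genes 2 rose and 3 fell. The beta-actin control probe sets, 3' minus 5', lay at -0.71 to -0.33 on the log2 scale on HFD and at -0.16 to 0.21 on LFD, without overlap. Their part in the diet results was not tested.

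The genotypes were then compared within each diet. On LFD no probe set of the array passed (limma, 0 of 22626), so percent called was 0 in each direction for members and for all. At an unadjusted p under 0.05 there were 18 of 77 members (23.4%), against 10.3% of all probe sets. The median difference of members, Alb::GC minus wildtype, was -0.54, against -0.06 for all, and 65 of 77 (84.4%) had negative values, against 57% of all. Both Alb::GC arrays lay below both wildtype arrays for 40 members (51.9%, against 23.3% of all) and above them for 3 (3.9%, against 15.5%).

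The 4 widest differences on LFD were those of the mitotic genes Ube2c, Kif20a, Birc5 and Ccnb2, and none passed the test. Ube2c had ratios of 0.13 and 0.24 in Alb::GC, against 6.94 and 3.73 in wildtype. The difference was -4.49 ± 0.34 with a 95% interval of -5.32 to -3.66 for this probe set alone (limma adjusted p = 0.0818, and 0.0565 to 0.469 over the alternatives). Ccnb2, cyclin B2, which activates Cdk1, had 0.69 and 1.14 in Alb::GC, against 9.07 and 3.43 in wildtype, a difference of -2.59 ± 0.64 (limma adjusted p = 0.304). Birc5 had 0.57 and 0.38 in Alb::GC, against 6.74 and 2.17 in wildtype, a difference of -2.91 ± 0.53 (limma adjusted p = 0.194). In each of these 3 genes both wildtype arrays were above both Alb::GC arrays.

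Kif20a had 0.33 and 0.12 in Alb::GC, against 3.63 and 1.57 in wildtype, a difference of -3.26 ± 0.72 (limma adjusted p = 0.255). Tpx2, which activates Aurora A on the spindle, had 0.38 and 0.15 in Alb::GC on 1428105_at, against 0.96 and 1.82 in wildtype, a difference of -2.23 ± 0.54 (limma adjusted p = 0.297). Its other probe set had 1.21 and 0.61 in Alb::GC, against 1.83 and 1.27 in wildtype. Cdk1, the kinase that drives mitosis, had 1.64 and 0.74 in Alb::GC, against 4.59 and 1.78 in wildtype, a difference of -1.33 ± 0.75 (limma adjusted p = 0.587). Mcm2 on 1434079_s_at combined a smaller difference, -1.07 ± 0.13, with close replicates, at 0.99 and 1.0 in Alb::GC and 2.08 and 2.22 in wildtype (limma adjusted p = 0.0992). Tyms on 1427810_at, a nucleotide supply gene, differed as widely as Tpx2, with 0.65 and 0.49 in Alb::GC, against 2.14 and 3.66 in wildtype, a difference of -2.21 ± 0.83 (limma adjusted p = 0.452). Its other 2 probe sets had positive values of 0.48 ± 0.49 and 0.15 ± 1.01. Plk1, a kinase of mitotic entry, overlapped between the genotypes, at 0.21 and 1.60 in Alb::GC and 0.61 and 1.96 in wildtype. Mki67 overlapped as well, at 0.42 and 1.92 in Alb::GC and 0.63 and 2.18 in wildtype. Some mitotic probe sets lay higher in Alb::GC. Nusap1 1416310_at had 2.04 and 2.37 there, against 1.02 and 1.64 in wildtype, while Nusap1 1416309_at overlapped. Top2a 1427724_at had 0.70 and 0.50 in Alb::GC, against 0.39 and 0.44 in wildtype. Top2a 1454694_a_at lay lower in Alb::GC, at 1.38 and 1.45, against 2.80 and 1.60.

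**Figure D3:**
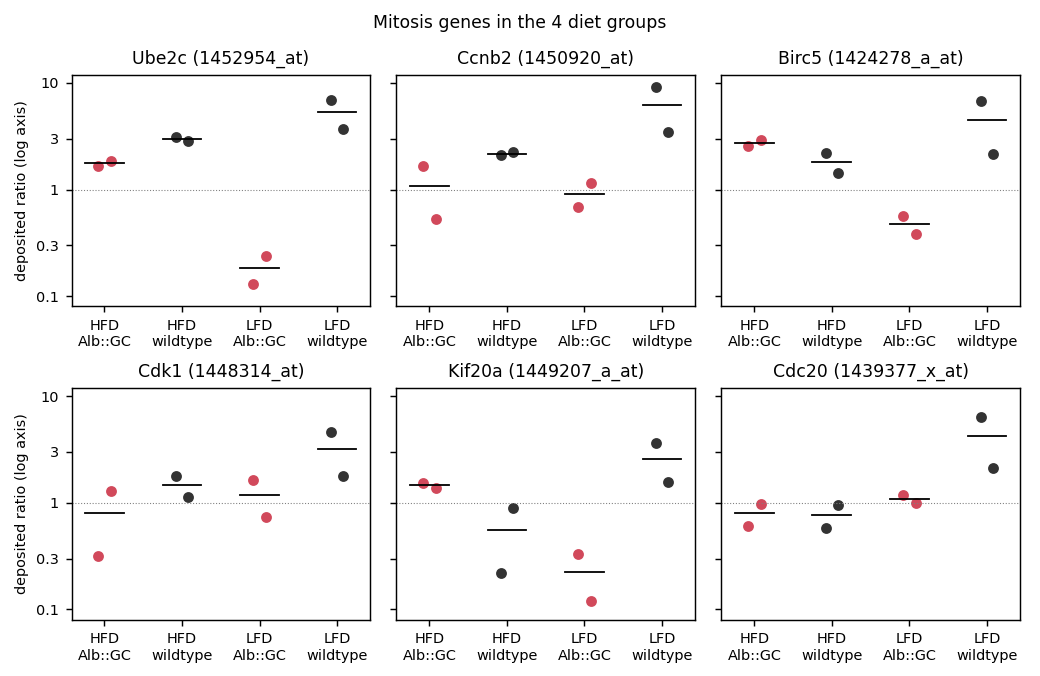
Deposited ratios (vertical log axis) of 6 mitosis genes are shown for 4 diet groups of 2 arrays, with points for arrays, black bars for arithmetic means, red for Alb::GC and dark grey for wildtype. Each gene is drawn from 1 probe set, the one of smallest limma p between genotypes on LFD, so the choice favours separation. On these 6 probe sets both LFD wildtype arrays lie above both LFD Alb::GC arrays, and Ube2c spans 0.13 to 6.94. Cdc20 1416664_at, 1 of 3 for that gene, overlapped on LFD: its lower wildtype ratio, 1.44, was under its higher Alb::GC ratio, 1.69.

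By role, the median differences on LFD were -1.02 for the 7 probe sets of the anaphase-promoting complex and its substrates, -0.79 for the 16 of chromosomes, centromere and spindle and -0.68 for the 7 of mitotic kinases and checkpoint. They were -0.52 for cyclins, Cdk1 and Foxm1, -0.39 for licensing and helicase and -0.38 for fork and nucleotide supply. Outside the members, 68 probe sets of 38 other mitosis genes had a median of -0.37, with 54 negative. The 59 probe sets of 36 other replication genes had a median of -0.07, with 33 negative. No marker list had a called gene in this comparison. The hepatocyte list lay at 0.90 to 1.0 in Alb::GC and 1.07 to 1.12 in wildtype. The stellate cell and fibroblast list lay at 1.13 to 1.30 in Alb::GC and 0.88 to 0.885 in wildtype. The lymphocyte list was lower in Alb::GC, at 0.85 to 0.92, against 1.08 to 1.20 in wildtype. The endothelial list lay at 0.96 to 1.0 in Alb::GC and 0.86 to 0.925 in wildtype. The erythroid list lay at 0.94 in Alb::GC and 0.96 to 0.975 in wildtype. The macrophage, neutrophil and cholangiocyte lists overlapped. Their part in the result was not tested.

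Each LFD wildtype array was also set alone against both LFD Alb::GC arrays. LFD wildtype replicate 1 lay above both of them for 58 members (75.3%, against 42.8% of all probe sets), and LFD wildtype replicate 2 did so for 48 (62.3%, against 37.2% of all). The median member difference was -0.34 without replicate 1 and -0.54 without replicate 2, so replicate 1 moved it by over 1.5 times. No member passed with either array left out. Ube2c stood at -4.05 without replicate 1 (limma adjusted p = 0.119) and at -4.94 without replicate 2 (0.0565). Without replicate 1 the differences were -2.10 for Birc5, -2.67 for Kif20a, -1.89 for Ccnb2, -2.67 for Tpx2 1428105_at, -2.59 for Tyms 1427810_at, -0.66 for Cdk1 and -1.12 for Mcm2 1434079_s_at. Without replicate 2 they were -3.72 for Birc5, -3.86 for Kif20a, -3.28 for Ccnb2, -1.78 for Tpx2 1428105_at, -1.83 for Tyms 1427810_at, -2.01 for Cdk1 and -1.03 for Mcm2 1434079_s_at. Each of these 7 kept its sign. Between leaving out one array and the other, Birc5 moved most in log2 units and Cdk1 most in proportion to its size. The role medians also depended on which array was left out. Without replicate 1 that of the anaphase-promoting complex was -0.34, that of chromosomes, centromere and spindle -0.69 and that of mitotic kinases and checkpoint -0.54. Without replicate 2 they were -1.70, -1.0 and -0.71 in the same order. For cyclins, Cdk1 and Foxm1 the median was -0.38 without replicate 1 and -0.49 without replicate 2. For licensing and helicase it was -0.29 and -0.46, and for fork and nucleotide supply -0.21 and -0.59.

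On HFD no member passed (limma), while 0.0354% of all probe sets were higher in Alb::GC and 0.0972% lower past the threshold, and 6 members (7.79%, against 11.2% of all) had an unadjusted p under 0.05. Negative values were seen for 48 of 77 (62.3%, against 47.9% of all). The median member difference was -0.18, against 0.018 for all, and was -0.078 without HFD wildtype replicate 2. The smallest p was that of Ccnd1 on 1417419_at, with ratios of 0.45 and 0.47 in Alb::GC, against 1.50 and 1.34 in wildtype. That difference of -1.53 ± 0.24 did not pass (limma adjusted p = 0.087) and was not shared by the other 2 Ccnd1 probe sets, at 0.03 ± 0.21 and 0.10 ± 0.18. With array weights it passed (0.0396). Ube2c had 1.68 and 1.84 in Alb::GC, against 3.11 and 2.85 in wildtype, a difference of -0.74 ± 0.34 (limma adjusted p = 0.5). No marker list had a called gene here. The neutrophil list lay at 0.52 to 0.76 in Alb::GC and 1.135 to 1.21 in wildtype. The erythroid list lay at 0.785 to 1.06 in Alb::GC and 2.24 to 2.38 in wildtype. The cholangiocyte list went the other way, at 0.71 to 0.88 in Alb::GC and 0.46 to 0.59 in wildtype. The part of these lists in the result was not tested.

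Negative differences on both diets were seen for 39 of 77 members (50.6%), against 27.4% of all probe sets. Shares near these follow from each diet alone, with 84.4% and 62.3% of members negative on LFD and HFD, against 57% and 47.9% of all. They therefore show no agreement of single probe sets between the diets. Averaged over diets 64 of 77 had negative values (83.1%, against 54% of all), and none passed (limma, 0 of all probe sets, with 15 members, 19.5% against 11.5% of all, at an unadjusted p under 0.05). For 4 members (5.19%, against 1.65% of all) all 4 Alb::GC arrays lay below all 4 wildtype arrays. These were Ube2c, Mcm2 1434079_s_at, Ccnb2 and Cdca3 1452040_a_at, named after their values were seen. The other probe sets of Mcm2 and Cdca3 overlapped between the genotypes. On LFD Cdca3 1448000_at even lay higher in Alb::GC, at 1.43 and 1.21, against 0.78 and 1.10 in wildtype. Ube2c averaged -2.62 ± 0.24 (limma adjusted p = 0.0768), or -2.40 without LFD wildtype replicate 1 and -2.84 without replicate 2. Negative averages numbered 61 of 77 without LFD wildtype replicate 1 and 65 without replicate 2.

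**Figure D4:**
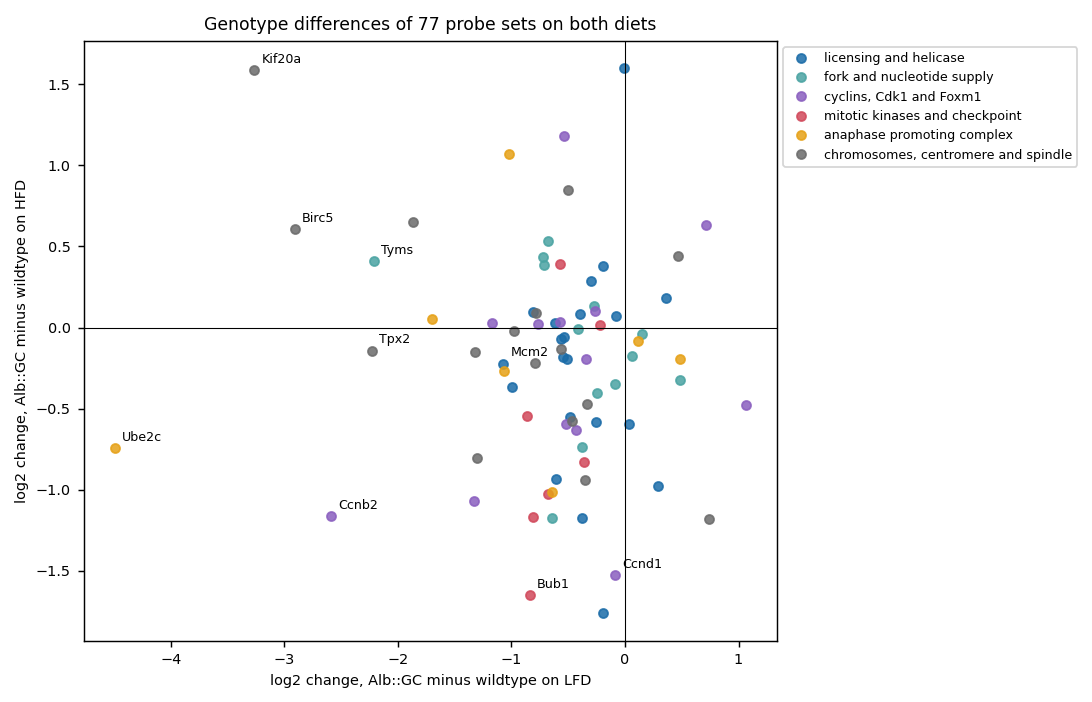
Each point is 1 of 77 probe sets, with the log2 change of Alb::GC minus wildtype on LFD (horizontal axis) and on HFD (vertical axis), coloured by role, from 2 arrays per group. Points spread left of 0 on LFD, out to Ube2c at -4.49, and 39 of 77 have negative values on both axes.

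Whether diet acted alike in both genotypes was tested by the interaction, HFD minus LFD in Alb::GC less the same in wildtype. No probe set of the array passed (limma, percent called 0), with 12 members at an unadjusted p under 0.05, 15.6% against 11.1% of all. The member values included 4.85 ± 1.02 for Kif20a (limma adjusted p = 0.206), 3.75 ± 0.49 for Ube2c (0.116) and 3.52 ± 0.75 for Birc5 (0.207). Without LFD wildtype replicate 1 they were 4.26 for Kif20a, 3.30 for Ube2c and 2.71 for Birc5, and without replicate 2 they were 5.44, 4.19 and 4.32 in that order. The Cdk inhibitor gene Cdkn1a, singled out after its values were seen, had an interaction of the opposite sign. On HFD it nevertheless lay lower in Alb::GC than in wildtype, as Ube2c did. On 1421679_a_at its ratios were 0.17 and 0.03 in HFD Alb::GC and 0.99 and 1.01 in HFD wildtype, against 2.78 and 2.57 in LFD Alb::GC and 0.32 and 0.06 in LFD wildtype. The interaction was -6.74 ± 1.03 there and -3.20 ± 0.48 on 1424638_at, and neither passed (limma adjusted p = 0.139 each). Within Alb::GC on HFD, Cdkn1a fell by 4.36 ± 0.73 on 1421679_a_at and fell by 2.56 ± 0.34 on 1424638_at (limma adjusted p = 0.029 and 0.0173). The first of these calls was lost without any single array except the LFD wildtype ones, and the second without either LFD Alb::GC array or HFD Alb::GC replicate 2.

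**Figure D5:**
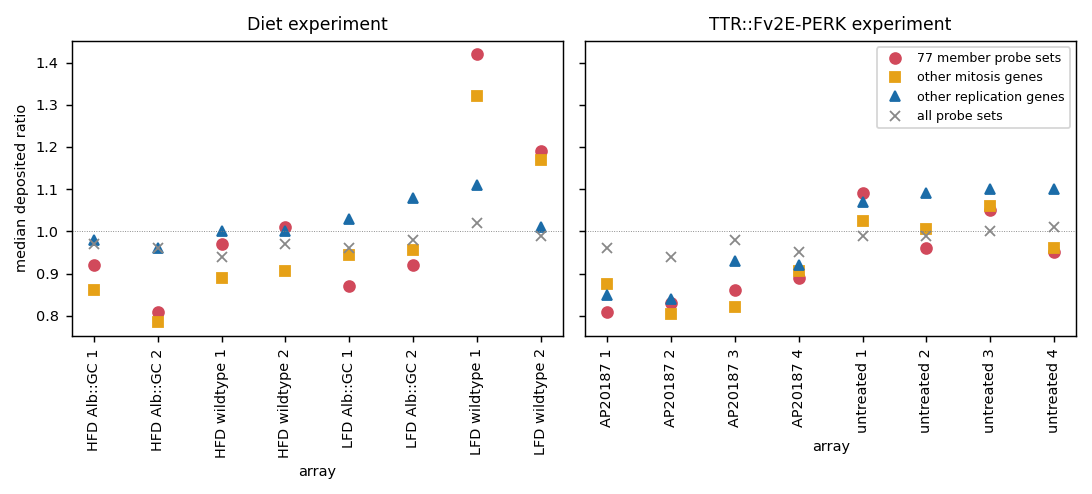
Symbols give the median deposited ratio per array (vertical axis) for 77 member probe sets, the other mitosis genes, the other replication genes and all probe sets, with arrays along the horizontal axis. In the diet panel members lie at 1.42 and 1.19 on the LFD wildtype arrays and at 0.81 to 1.01 on the other 6. In the other panel all AP20187 arrays lie below all untreated arrays, for the members, for both other lists and for all probe sets.

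Probe sets of one gene often disagreed. Of the 23 genes with several probe sets, 9 had values of mixed sign with AP20187, 8 for HFD in wildtype, 11 for HFD in Alb::GC, 12 between genotypes on HFD and 8 between genotypes on LFD. On LFD the other 15 were negative throughout. Values from a gene with 1 probe set, such as Ube2c, Ccnb2, Cenpa, Birc5 and Ccne2, have no such check. Across the experiments, 38 of 77 probe sets (49.4%) were negative both with AP20187 and with HFD averaged over genotypes, against 34.2% of all. A member share near this follows from the 71.4% negative with AP20187 and the 67.5% negative with HFD. It therefore shows no agreement of single probe sets between the experiments.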

How the data were processed

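The deposited values were used as given. Each was a linear ratio near 1 for a probe set on an array, to 2 decimals and never under 0.01. The divisor of the ratio and the authors' software were not given in the sources used here. Per the labels' protocols, total RNA was extracted and biotin-labelled cRNA hybridised. Of 22690 probe sets, 64 controls were left out. Symbols came from the platform annotation supplied, which can be old. An offset of 0.05 was added before log2, which understates changes near the smallest values, and 4 member values lay at or below it. limma 3.58.1 in R 4.3.3 was fitted to each experiment apart, with variances following the mean, and adjusted by the Benjamini-Hochberg method over 22626 probe sets at 0.05, two-sided. Residual degrees of freedom were 6 for AP20187 and 4 for diet, where 4 group means shared 1 spread, to which the model added 2.06 and 2.30. A gene was called where any probe set passed in 1 direction. Replicates correlated at 0.442 to 0.658 and shared 1.44% to 2.46% of values over 16 pairs, so none was counted as a duplicate. The number of arrays limits the precision.

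Named probe sets were picked by rule for each comparison and followed through the alternatives. They were the called ones (the 12 of largest change where more passed) or, with under 5 calls, the 5 of smallest p. Up to 3 called probe sets of each pathway list were picked as well. The text prints only part of these picks. Other members were added for their role or to complete the calls, after their values were seen. A planned listing of genes most like the members was not made, because 8 arrays in groups give no usable correlation. The members and lists were chosen with earlier results of these data known. The fits were tested on simulated data. Alternatives changed the offset, scaling, variance trend, filters, array weights and arrays used. Reading and drawing used data.table, version 1.17.8, and matplotlib 3.10.9 under Python 3.11.15.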

Additional observations from a re-analysis of the deposited data

Results flagged for a closer look

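In 10 of 154 groups of 4 TTR::Fv2E-PERK arrays 1 member value lay far from the other 3, and chance alone flags about 1 in 20 groups. Untreated replicate 4 gave 1.37 for Mcm2 1434079_s_at (others 1.0 to 1.05), 0.12 for Mcm3 1420029_at (1.33 to 1.99) and 1.04 for Cdc20 1416664_at (1.38 to 1.43). Untreated replicate 3 gave 0.52 for Nusap1 1416310_at (0.98 to 1.11) and 1.25 for Tpx2 1428104_at (0.81 to 0.87). AP20187 replicate 1 gave 0.03 for Aurkb 1451246_s_at (0.52 to 0.62) and 0.19 for Kif22 1451128_s_at (0.06 to 0.07). The others were AP20187 replicate 2 at 0.66 for Mcm3 1420029_at (0.20 to 0.24), replicate 3 at 0.49 for Kif11 1452314_at (0.96 to 1.03) and replicate 4 at 0.89 for Cdca3 1448001_x_at (0.99 to 1.01).

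In 5 of 77 members the HFD arrays lay above the LFD arrays in one genotype and below them in the other, as did 4.86% of all probe sets. The interaction was 3.75 for Ube2c, 4.85 for Kif20a, 1.20 for Ccna2 1417911_at and 2.09 for Tpx2 1428105_at, each down in wildtype and up in Alb::GC. It was -1.44 for Ccnd1 1417419_at, up in wildtype and down in Alb::GC. None passed (limma adjusted p = 0.116, 0.206, 0.407, 0.407 and 0.242, in the order given).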

How the results depend on the processing

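No named or called member probe set, and no named pathway probe set, changed its direction under the alternatives run. The remaining members and the marker genes were followed only within counts and medians, or not at all. Of the tests of named or called member probe sets under alternatives, 801 kept their side of the threshold, 197 lost the call and 17 gained it, and of those of pathway probe sets 614 kept it and 199 lost it. The 801 include many tests of probe sets never called, such as those between genotypes and of the interaction, which stayed uncalled. Calls were therefore lost in a larger share of their own tests than these totals show. With array medians set equal, AP20187 had 7 falls and HFD in Alb::GC 4 rises. Quantile normalization gave HFD in Alb::GC 1 rise and 0 falls, and HFD averaged over genotypes 1 rise. Without the variance trend HFD in Alb::GC had 1 rise and 0 falls. Array weights gave 5 rises for HFD in Alb::GC, 5 for HFD averaged and 1 fall for Alb::GC on HFD. With the spread from the 4 arrays compared, HFD had 1 fall in wildtype and 0 rises and 0 falls in Alb::GC. Leaving out 1 array at a time gave 7 to 10 falls and 3 to 5 rises with AP20187. It gave 0 to 7 falls and 0 to 1 rises for HFD in wildtype, 0 to 1 falls and 0 to 7 rises for HFD in Alb::GC, and 1 to 8 falls and 1 to 7 rises for HFD averaged. Median member changes then ran from -0.54 to -0.32 for HFD in wildtype and from -0.20 to -0.045 for HFD in Alb::GC. For Alb::GC against wildtype they ran from -0.54 to -0.34 on LFD and from -0.23 to -0.078 on HFD, and for the interaction from 0.22 to 0.44. The cause of these changes was not tested. Where 1 array was left in a group, it was assumed to vary like the others. No paired analysis was possible because the replicate numbers follow accession order. Ratios without levels do not show which probe sets were above background.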

Other observations

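The regulators upstream of these genes were also counted. Of 13 measured genes of the E2F, pocket protein and MuvB list, 2 rose (15.4%, against 16.3% of all genes) and 3 fell (23.1%, against 24.3%) with AP20187, shares near those of all genes. Rb1, the retinoblastoma protein that restrains E2F, rose by 0.68 ± 0.19 and E2f5, a repressor E2F, by 0.72 ± 0.21 on 1417444_at, while Rbl2, which encodes the pocket protein p130, fell on 1425981_a_at by 0.81 ± 0.13 (limma adjusted p = 0.0224, 0.0309 and 0.00221). The call of Rb1 was lost without untreated replicate 4 or AP20187 replicate 1, 2 or 4, and that of E2f5 1417444_at without untreated replicate 2 or 3 or AP20187 replicate 1, 2 or 4. With HFD averaged over genotypes, 2 of these genes rose (15.4%, against 16% of all genes) and 3 fell (23.1%, against 19.3%). Rbl2 rose on 1418146_a_at by 0.98 ± 0.11, and Mybl2, which encodes B-Myb, fell by 0.89 ± 0.16 on 1417656_at (limma adjusted p = 0.00421 and 0.013). The other Mybl2 probe set showed no fall, with an adjusted p of 0.999 (limma). Of 8 G1 cyclin and kinase genes, 1 rose (12.5%, against 16.3% of all genes) and 2 fell (25%, against 24.3%) with AP20187. Ccnd2, cyclin D2, fell on 1 of 7 probe sets, 1434745_at, by 0.74 ± 0.12 (limma adjusted p = 0.00196). With HFD averaged over genotypes, 3 of 38 other mitosis genes rose (7.89%, against 16% of all genes) and 10 fell (26.3%, against 19.3%). Prc1, which bundles the central spindle, fell by 1.87 ± 0.43 on 1423774_a_at (limma adjusted p = 0.025), a call lost without any single array except the HFD wildtype ones, and its other probe set was not called. Pttg1, securin, rose on 2 of 3 probe sets, by 1.56 ± 0.22 on 1424105_a_at (limma adjusted p = 0.00708).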
